A study of Mus musculus with 36 samples.

Results

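The genes described here are 33 named genes that mark microglia, out of 52636 genes in a table of expression levels from the anterior cingulate cortex (aCC) of mice with reduced Brd1 expression. They were chosen by name from what is known of the cell type, with earlier results of these data known, and each was matched to its Ensembl identifier. The 12 homeostatic genes were P2ry12, Tmem119, Cx3cr1, Siglech, Selplg, Fcrls, Gpr34, P2ry13, P2ry6, Olfml3, Sall1 and Hpgds. The 3 complement genes were C1qa, C1qb and C1qc. The 10 phagocytic and lysosomal genes were Trem2, Tyrobp, Fcer1g, Fcgr3, Itgam, Mertk, Cd68, Ctss, Lgmn and Laptm5, and the 8 pan-myeloid genes, shared with other myeloid cells, were Csf1r, Spi1, Irf8, Aif1, Ptprc, Cd53, Ly86 and Ltc4s.

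Brd1 encodes a scaffold protein of histone acetyltransferase complexes. All 36 libraries came from female mice, 8 to 11 weeks old and all labelled with the strain C57BL/6NTac-Brd1, either wild type (WT) or heterozygous for a targeted deletion that inactivates 1 Brd1 allele (Brd1+/-), and all from a single targeted line. Imipramine (IMN), an antidepressant of the tricyclic class, was injected subcutaneously at a dose of 10 mg/kg on consecutive days, with saline as the vehicle control, and all of them went through a tail suspension test, an open field test and a forced swim test before the brain was taken. Vehicle was given to 8 WT and 9 Brd1+/- mice and IMN to 10 WT and 9 Brd1+/- mice, with 1 library of the right aCC from each mouse. The comparisons address whether Brd1 haploinsufficiency, imipramine or their combination is accompanied by a different level of microglial transcripts in this region.

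Microglia are the resident macrophages of the brain parenchyma. In the undisturbed brain they sample their surroundings through purinergic receptors such as P2ry12 and the fractalkine receptor Cx3cr1, and they depend on signals through the receptor Csf1r for survival. They are the main source of C1q, which starts the classical complement cascade and tags synapses for removal, and they clear tagged material through receptors such as Trem2 and Mertk. When microglia leave the homeostatic state, P2ry12 and Tmem119 usually fall while phagocytic and lysosomal genes rise, so the homeostatic genes were read apart from the others. In a tissue punch, fewer microglia and less RNA of a gene per microglial cell cannot be told apart.

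Much of the microglial programme is driven by PU.1, the transcription factor encoded by Spi1. The core of its binding motif, GAGGAA, was therefore searched on both strands in windows from 250 bases before to 50 bases after the start of each gene (RefSeq, GRCm38.p6). Windows were at hand for 25 of the 33 microglia genes. The core stood in 16 of them (64.0%), against 28.3% of the windows of all 27025 genes. A longer form of the motif, GAGGAAGT, which contains the core, stood in 4 of the 25 (16%), namely C1qc, Cd53, Ctss and Hpgds, against 3.3% of all windows. These are matches of letters and do not show binding. The 250 bases before the start site are printed here for 1 gene of each functional group, to show where the core lies in genes whose levels follow, each 5′ to 3′ on the strand of the gene, with the core in capitals. The window of C1qb spans chr4:136886201-136886450 on the minus strand, that of Ctss chr3:95526536-95526785 on the plus strand, that of P2ry13 chr3:59210883-59211132 on the minus strand and that of Cd53 chr3:106790150-106790399 on the minus strand. The capitals mark the core only. For Ctss and Cd53 the longer form counted above does not lie within the printed bases. The 50 bases after the start, which were also searched, are not printed.
C1qb: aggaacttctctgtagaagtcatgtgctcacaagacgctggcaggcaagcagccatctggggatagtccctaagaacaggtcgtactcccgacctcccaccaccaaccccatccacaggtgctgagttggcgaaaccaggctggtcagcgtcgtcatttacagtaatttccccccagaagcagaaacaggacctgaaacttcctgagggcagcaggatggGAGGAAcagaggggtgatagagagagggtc
Ctss: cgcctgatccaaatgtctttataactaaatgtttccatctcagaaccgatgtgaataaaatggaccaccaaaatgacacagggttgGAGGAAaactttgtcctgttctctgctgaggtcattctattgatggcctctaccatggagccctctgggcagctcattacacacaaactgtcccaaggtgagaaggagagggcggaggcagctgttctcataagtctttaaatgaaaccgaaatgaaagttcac
P2ry13: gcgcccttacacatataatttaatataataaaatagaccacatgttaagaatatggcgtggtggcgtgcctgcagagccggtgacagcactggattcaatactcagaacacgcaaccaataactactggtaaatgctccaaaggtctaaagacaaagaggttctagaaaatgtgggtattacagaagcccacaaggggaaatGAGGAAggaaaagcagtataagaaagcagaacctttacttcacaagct
Cd53: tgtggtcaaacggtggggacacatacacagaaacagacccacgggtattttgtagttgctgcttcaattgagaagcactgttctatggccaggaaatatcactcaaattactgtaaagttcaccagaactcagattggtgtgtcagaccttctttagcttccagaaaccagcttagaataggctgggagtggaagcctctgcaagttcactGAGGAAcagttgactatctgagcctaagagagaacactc

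Levels are given as TPM (transcript abundance scaled to a fixed total per library), the authors' share of the library's transcripts after correction for gene length, so that genes can be compared with each other. The number of reads behind each value is unknown, and no counting error can be given. Each library held 24685 to 25517 genes above 0. As a check of the labels, Brd1 lay at 22.6 to 31.9 TPM in WT vehicle and 13.8 to 20.9 TPM in Brd1+/- vehicle libraries, which did not overlap, and at 17.9 to 27.8 TPM in WT IMN and 13.5 to 19.4 TPM in Brd1+/- IMN libraries, which did. Over both treatments Brd1 was lower in Brd1+/- mice by a log2 difference of -0.54 (limma, Benjamini-Hochberg adjusted p = 2.83e-05). One library, Brd1+/- vehicle 6, stood apart in its markers of striatum and choroid plexus, with a summed level of 4 choroid plexus genes of 3883 TPM where the median library had 1.26 TPM. In Brd1+/- IMN 6 the 33 microglia genes summed to 495.8 TPM, the lowest of all libraries, against a median of 680.5 TPM and a highest sum of 783.6 TPM in WT vehicle 4. Brd1+/- IMN 6 was the lowest of all 36 libraries for 11 of the microglia genes and the lowest of its own group for 22.

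All 33 genes were detected in every library. Their medians over the 36 libraries ran from 0.665 TPM for Ptprc, the leukocyte common antigen, to 78.1 TPM for Lgmn, a lysosomal cysteine protease, with 18 of the 33 above 10 TPM. The next highest were C1qb at a median of 69.3 TPM, C1qa at 66.7 TPM, Ctss, another lysosomal protease, at 55.2 TPM and C1qc at 54.2 TPM. The ranges of these neighbours over the libraries overlapped, since C1qa ran from 44.0 to 90.1 TPM, C1qb from 52.0 to 102.1 TPM and C1qc from 37.1 to 69.9 TPM. The 3 C1q chains are encoded side by side within chr4:136880129-136898803 (GRCm38) and are assembled into 1 protein.

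Among the homeostatic genes Selplg, the ligand of the selectins, had the highest median at 29.4 TPM, followed by P2ry12 at 28.1 TPM, Tmem119, a membrane protein, at 14.3 TPM, Fcrls, a receptor-like protein, at 14.2 TPM and Cx3cr1 at 14.2 TPM. Siglech, a sialic acid binding lectin, lay at 8.45 TPM, Olfml3, a secreted protein, at 8.02 TPM and the receptor Gpr34 at 6.09 TPM. The transcription factor Sall1 had a median of 5.55 TPM, the purinergic receptors P2ry13 and P2ry6 had medians of 5.51 TPM and 2.35 TPM, and the prostaglandin D synthase Hpgds had one of 2.93 TPM. In the phagocytic group the adaptor Tyrobp had a median of 29.0 TPM and its partner receptor Trem2 one of 8.77 TPM. The membrane protein Laptm5 of lysosomes lay at 26.8 TPM and its companion marker Cd68 at 12.4 TPM. The Fc receptor subunits Fcer1g and Fcgr3 had medians of 24.3 TPM and 17.5 TPM, the receptor kinase Mertk one of 20.9 TPM and Itgam, the integrin chain of a complement receptor, one of 2.34 TPM. Of the pan-myeloid genes, Csf1r had a median of 25.2 TPM, Ly86 10.9 TPM, Aif1 7.73 TPM, Cd53 5.79 TPM and Ltc4s 4.76 TPM, and the transcription factors Spi1 and Irf8 had 2.73 TPM and 1.61 TPM.

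The reading of some genes is limited by neighbours. In the annotation, 14 of the 33 genes are overlapped by another gene, and whether the counting used strand is not stated. Gpr34 lies inside Cask, which had a median of 30.9 TPM, and P2ry12 and P2ry13 lie inside Med12l (median 10.9 TPM). Itgam overlaps Gm49368 (median 3.82 TPM). Cx3cr1 is overlapped by Wdr48 (median 59.4 TPM) and, on its own strand, by Csrnp1 (16.6 TPM) and Gorasp1 (15.4 TPM). Csf1r is overlapped by Hmgxb3 (19.3 TPM) and Hpgds by Gm17147 (1.08 TPM), which had a Pearson's r of 0.53 with Hpgds over the libraries. The values of all these microglia genes are uncertain to that extent. Irf8 is overlapped by Gm20388, which was listed at 0 in every library. Fcgr3 is closely similar in sequence to Fcgr2b, and reads could be shared between them.

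The spread between mice within a group was close to that of other genes. The within-group SD on the log2(TPM + 0.5) scale had a median of 0.263 over the 33 genes, against 0.271 over all genes tested. It was smallest for Lgmn at 0.10 and largest for Trem2 at 0.712. Trem2 fell into 10 libraries between 2.57 and 3.92 TPM and 26 between 6.71 and 13.2 TPM, with both kinds in every group, so its group values mix low and high libraries. What set them apart was not tested. A difference between groups therefore had to be read against a spread between mice that itself differed widely from gene to gene.

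The first question was whether microglial transcripts differed with genotype without drug. In vehicle-treated mice, P2ry12 ran from 21.76 to 32.99 TPM around a median of 28.0 TPM in WT and from 19.4 to 42.4 TPM around 31.0 TPM in Brd1+/-. Its range in WT lay inside that in Brd1+/-, and the log2 difference was 0.17 (95% confidence interval -0.08 to 0.42). Tmem119 ran from 11.6 to 18.7 TPM around a median of 16.1 TPM in WT and from 10.9 to 16.1 TPM around 12.97 TPM in Brd1+/-. The Brd1+/- libraries sat in the lower part of the WT range but overlapped it, with a log2 difference of -0.22 (-0.44 to 0.00). So the best known homeostatic markers had estimates of opposite sign, and neither interval excluded 0. For the complement genes, C1qa ran from 53.2 to 90.1 TPM in WT and from 57.0 to 84.4 TPM in Brd1+/- libraries, with medians of 65.7 TPM and 66.6 TPM, and a log2 difference of -0.04 (-0.24 to 0.17). C1qb ran from 57.7 to 84.9 TPM around 71.1 TPM in WT and from 54.7 to 102.1 TPM around 65.8 TPM in Brd1+/- libraries, with a log2 difference of -0.06 (-0.26 to 0.15). C1qc ran from 40.6 to 69.9 TPM around 58.6 TPM and from 42.1 to 61.6 TPM around 50.2 TPM, with a log2 difference of -0.11 (-0.32 to 0.09). The groups overlapped almost fully for all 3 genes.

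**Figure D1:**
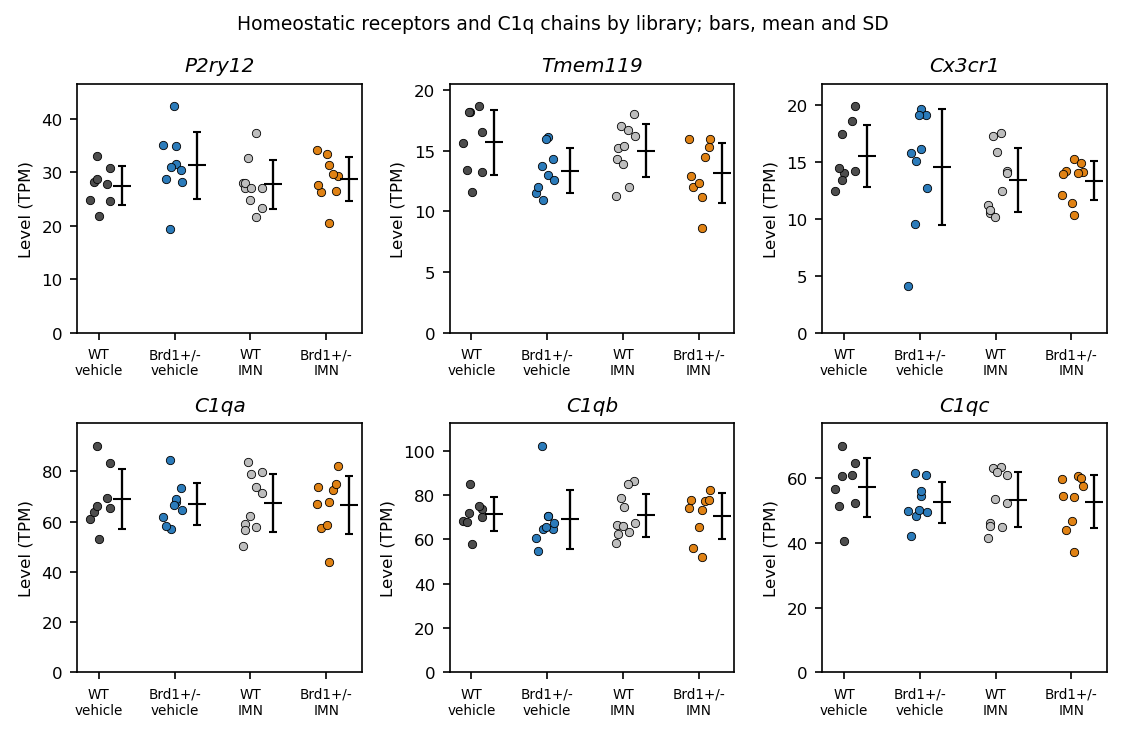
Level in TPM of P2ry12, Tmem119, Cx3cr1, C1qa, C1qb and C1qc in each of the 36 libraries (points), by group, with a bar at the group mean and an error bar of 1 SD. The 4 groups overlap for each gene, and the library with Cx3cr1 at 4.07 TPM is Brd1+/- vehicle 2.

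None of the 33 genes passed the test in vehicle-treated mice (0 genes at an adjusted p below 0.05, limma with Benjamini-Hochberg adjustment over 25572 genes), nor did any other gene (0%). The genes that did not pass include Brd1 itself, although its vehicle groups did not overlap. The smallest adjusted p over all genes was 0.0620 (limma). The paper reports Brd1 as the only aCC gene to differ between the vehicle groups after correction for multiple testing, with edgeR. At an unadjusted p below 0.05 there were also 0 microglia genes, where 3.75% of all genes tested passed. The median log2 difference over the 33 genes was -0.06 against -0.02 over all genes, and 11 of the 33 estimates were higher and 22 lower in Brd1+/- mice, where 43.7% of all genes tested were higher. This median moved with single libraries, to -0.015 with 15 higher without WT vehicle 4 and to -0.100 with 7 higher without WT vehicle 1. The single estimates ran from -0.22 for Tmem119 to 0.20. None was larger than the median within-group SD of the 33 genes, which is not the SD of each single gene. Without WT vehicle 1, or without Brd1+/- vehicle 7, 3 microglia genes were at an unadjusted p below 0.05 (limma). Markers of other cells had estimates on one side as well. All 10 oligodendrocyte markers had higher estimates in Brd1+/- vehicle, with a median log2 difference of 0.35, and all 7 markers of border macrophages had lower ones, with a median of -0.38, none at an unadjusted p below 0.05. Their part in the microglial values was not tested.

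The same question was asked in imipramine-treated mice. P2ry12 ran from 21.7 to 37.4 TPM around a median of 27.1 TPM in WT IMN and from 20.5 to 34.1 TPM around 29.3 TPM in Brd1+/- IMN libraries, with a log2 difference of 0.05 (-0.15 to 0.26). Tmem119 ran from 11.2 to 18.1 TPM around 15.3 TPM and from 8.60 to 15.96 TPM around 12.95 TPM, with a log2 difference of -0.19 (-0.42 to 0.04). The groups overlapped for both genes, with the lowest Tmem119 in Brd1+/- IMN 6. The complement genes had medians of 66.7 TPM and 67.8 TPM for C1qa, 67.0 TPM and 74.0 TPM for C1qb and 52.8 TPM and 54.3 TPM for C1qc in WT IMN and Brd1+/- IMN. Their log2 differences were -0.02 (-0.26 to 0.21), -0.01 (-0.20 to 0.19) and -0.02 (-0.23 to 0.20).

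At an adjusted p below 0.05 there were 0 microglia genes between the genotypes under imipramine (0% of all genes). At an unadjusted p below 0.05 there was 1, Spi1, where 3.23% of all genes passed. Spi1 ran from 1.88 to 5.14 TPM around a median of 2.73 TPM in WT IMN and from 1.69 to 4.35 TPM around 1.89 TPM in Brd1+/- IMN libraries. The ranges overlapped widely, since Brd1+/- IMN 8 alone stood at 4.35 TPM and the next library of its group at 2.26 TPM. The log2 difference was -0.39 (SE 0.17, limma unadjusted p = 0.0364, adjusted p = 1.00), and the unadjusted p was above 0.05 without any one of WT IMN 1, 2, 9 or 10 or Brd1+/- IMN 1, 2, 4, 5, 6 or 9, reaching at most 0.0742, and was 0.0679 with array weights. The 33 estimates had a median of -0.05 and ran from -0.39 to 0.24, and 23 were lower in Brd1+/- IMN. With arrays weighted by their quality the split turned to 13 lower and 20 higher, and without Brd1+/- IMN 6 to 15 lower and 18 higher with a median of 0.02, so the direction of the group as a whole was not stable.

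Imipramine was next compared with vehicle in each genotype. These comparisons share their vehicle and IMN libraries with those between the genotypes, so they are not independent of them. In Brd1+/- mice, 0 microglia genes passed at an adjusted p below 0.05, against 2 genes of all tested (0.00782%), a count that was 0 in 16 and 1 in 2 of the 18 fits that left out a library. At an unadjusted p below 0.05 there were 3, all lower with imipramine and all of them regulators or receptors at low levels, where 5.52% of all genes passed and 2.40% passed with a lower level.

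The gene with the smallest p was Spi1. It ran from 2.57 to 5.29 TPM around a median of 3.20 TPM in Brd1+/- vehicle and from 1.69 to 4.35 TPM around 1.89 TPM in Brd1+/- IMN libraries. All Brd1+/- IMN libraries other than replicate 8 lay at or below 2.26 TPM, under the lowest vehicle library. The log2 difference was -0.55 (SE 0.15, limma unadjusted p = 0.00180, adjusted p = 0.572). Gpr34, a receptor for lysophosphatidylserine, ran from 5.12 to 9.01 TPM around 7.46 TPM in vehicle and from 4.56 to 7.09 TPM around 5.54 TPM in IMN libraries. The groups overlapped, with a log2 difference of -0.34 (SE 0.11, limma unadjusted p = 0.00502, adjusted p = 0.715). Irf8, a transcription factor that acts together with PU.1, ran from 1.32 to 3.58 TPM around 1.78 TPM and from 0.872 to 2.06 TPM around 1.34 TPM. Its groups overlapped as well, with a log2 difference of -0.38 (SE 0.15, limma unadjusted p = 0.0229, adjusted p = 0.826). The 3.58 TPM stood in Brd1+/- vehicle 6, the library high in striatal and choroid plexus markers, and without it the log2 difference was -0.283. Over the fits that left out a library, the unadjusted p of Irf8 reached at most 0.0485 (limma).

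P2ry12, Tmem119 and the C1q genes had smaller estimates in the same mice. The log2 difference with imipramine in Brd1+/- mice was -0.11 (-0.36 to 0.14) for P2ry12, -0.03 (-0.26 to 0.20) for Tmem119, -0.02 (-0.24 to 0.19) for C1qa, 0.04 (-0.19 to 0.26) for C1qb and 0.00 (-0.20 to 0.20) for C1qc, and the groups overlapped for each, with C1qa running from 44.0 to 82.3 TPM, C1qb from 51.96 to 82.0 TPM and C1qc from 37.1 to 60.7 TPM in Brd1+/- IMN libraries. Of the 10 activation genes tested, listed further on, 4 had higher and 6 lower estimates, with a median of -0.04. Spp1 had the highest, at 0.73. All 8 pan-myeloid genes had lower estimates, with a median of -0.15, whereas the phagocytic and lysosomal genes split into 5 higher and 5 lower with a median of 0.00. Over all 33 genes 25 estimates were lower, which became 20 when mitochondrially encoded genes were left out of the total and 17 without Brd1+/- IMN 6, and the median was -0.03 against 0.01 over all genes. Border macrophages, which line the meninges and vessels and share the pan-myeloid genes, had higher estimates for all 7 markers with imipramine in these mice, with a median log2 difference of 0.74 and 3 of them at an unadjusted p below 0.05 (limma), F13a1 at 0.88, Mrc1 at 0.75 and Lyve1 at 0.59. Their summed level ran from 1.16 to 12.8 TPM in Brd1+/- vehicle and from 0.960 to 23.5 TPM in Brd1+/- IMN libraries, so the ranges overlapped. All 8 striatal markers had lower estimates in this comparison, with a median of -0.55. All 10 oligodendrocyte markers had higher ones, with a median of 0.16. The part of these markers of other cells in the microglial values was not tested.

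In WT mice 0 microglia genes passed with imipramine at an adjusted p below 0.05 (0% of all genes). Among all genes 32 passed without WT vehicle 1, none of them a microglia gene. At an unadjusted p below 0.05 there were 3, of which 2 were lower, where 6.60% of all genes passed and 4.57% passed with a lower level. Siglech ran from 5.49 to 11.8 TPM around a median of 9.92 TPM in WT vehicle and from 4.07 to 11.3 TPM around 6.82 TPM in WT IMN libraries, with a log2 difference of -0.45 (SE 0.19, limma unadjusted p = 0.0305, adjusted p = 0.712). Ly86, a partner of a Toll-like receptor homologue, ran from 9.76 to 15.0 TPM around 12.1 TPM and from 7.70 to 12.3 TPM around 10.6 TPM, with a log2 difference of -0.24 (SE 0.11, limma unadjusted p = 0.0329, adjusted p = 0.713). Mertk, a receptor for apoptotic cells, ran from 14.6 to 28.5 TPM around 19.4 TPM and from 20 to 29.95 TPM around 23.2 TPM, with a log2 difference of 0.29 (SE 0.11, limma unadjusted p = 0.0185, adjusted p = 0.671). The groups overlapped for all 3, with 2 genes lower and Mertk, which astrocytes also express, higher. The unadjusted p of Mertk was 0.0600 with array weights, and that of Ly86 was above 0.05 under other scalings of the libraries (limma). Without any one of WT vehicle 4 or 8 or WT IMN 3 or 6, 1 gene was left at an unadjusted p below 0.05 (limma), and without WT IMN 1 there were 5.

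P2ry12 and the complement genes again lay near 0 in WT mice, with log2 differences of 0.01 (-0.19 to 0.21) for P2ry12, -0.06 (-0.28 to 0.17) for Tmem119, -0.04 (-0.27 to 0.19) for C1qa, -0.01 (-0.19 to 0.16) for C1qb and -0.10 (-0.32 to 0.13) for C1qc. Over the 33 genes the median was -0.06 and 25 estimates were lower. Single libraries moved this, to a median of -0.006 with 18 lower without WT vehicle 4, -0.012 with 19 lower without WT IMN 4, and -0.124 with 27 lower without WT vehicle 1. All 10 oligodendrocyte markers had higher estimates in WT IMN, with a median of 0.66 and none at an unadjusted p below 0.05 (limma). When the mean of those markers in each library was added to the fit, 11 of the 33 estimates were lower and 22 higher, with a median of 0.02. The direction of the 33 genes in WT mice thus depended on the oligodendrocyte term, which was added after the data had been seen.

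**Figure D2:**
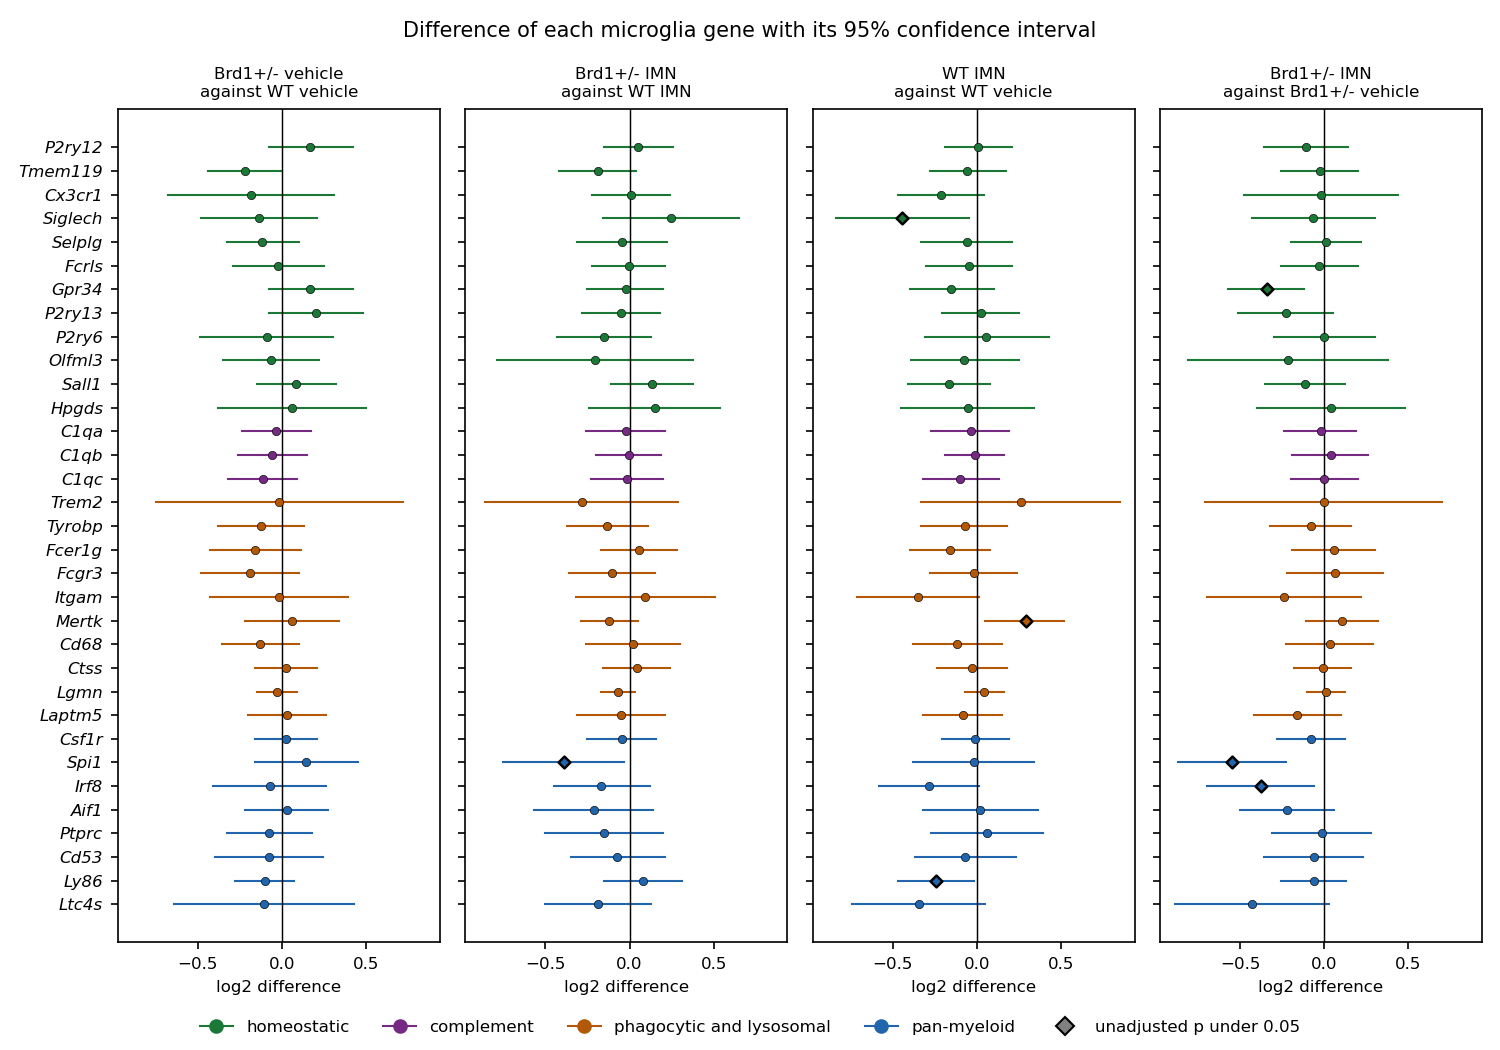
Log2 difference with its 95% confidence interval for each of the 33 genes in the 4 comparisons between groups; diamonds mark an unadjusted p below 0.05 (limma). Most intervals include 0, and the diamonds are 0 in the vehicle comparison, 1 (Spi1) between genotypes under imipramine, and 3 for imipramine in each genotype.

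Whether imipramine acted differently in the genotypes was tested by the interaction over all 36 libraries. There were 0 microglia genes at an adjusted p below 0.05 (0% of all genes) and 1 at an unadjusted p below 0.05, against 3.20% of all genes. It was Spi1, with a log2 interaction of -0.53 (SE 0.23, limma unadjusted p = 0.0272, adjusted p = 1.00), the difference between its estimate in Brd1+/- mice and a value of -0.02 (-0.38 to 0.34) in WT mice. The 33 interactions were evenly split, 17 above and 16 below 0, with a median of 0.01.

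With both treatments pooled, Tmem119 was the single microglia gene at an unadjusted p below 0.05 for genotype, where 3.62% of all genes passed. It was lower in Brd1+/- mice by a log2 difference of -0.20 (SE 0.08, limma unadjusted p = 0.0115, adjusted p = 0.999). P2ry12 had an estimate of 0.11 (-0.05 to 0.26) in the same fit, and C1qa, C1qb and C1qc had -0.03, -0.03 and -0.06. Without WT vehicle 1, 2 microglia genes were at an unadjusted p below 0.05 (limma). No microglia gene passed at an adjusted p below 0.05 (limma), and among all genes 1 did, Brd1 itself (0.00391%). All 8 pan-myeloid genes had estimates below 0, with a median of -0.11, and the homeostatic genes were split into 6 higher and 6 lower.

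Imipramine was also compared with vehicle over both genotypes, in all 36 libraries. Here 0 microglia genes passed at an adjusted p below 0.05, against 70 genes of all tested (0.274%), a count that was 40 without Brd1+/- IMN 6 and 170 without WT vehicle 1. At an unadjusted p below 0.05 there were 7, where 9.38% of all genes passed; 6 of the 7 were lower, where 5.48% of all genes passed with a lower level. The 6 were Irf8, Gpr34, Ltc4s, Spi1, Ly86 and Itgam, and the gene with a higher level was Mertk. By group, 4 of the 8 pan-myeloid, 1 of the 12 homeostatic, 2 of the 10 phagocytic and 0 of the 3 complement genes were among them. In the same fit, 6 of the 7 border macrophage markers had higher estimates, with a median of 0.31 and F13a1 at 0.58 (limma unadjusted p = 0.00363), and so did 6 of the 7 endothelial markers, with a median of 0.05 and Slco1a4 at 0.38 (p = 0.00616). In WT mice alone, 3 border macrophage markers had higher and 4 lower estimates with imipramine, with a median of -0.11. The interactions of all 7 were above 0, with a median of 0.60 and 0 at an unadjusted p below 0.05 (limma). The border macrophage markers summed to 1.65 to 13.5 TPM in WT vehicle, 1.16 to 12.8 TPM in Brd1+/- vehicle, 1.11 to 16.3 TPM in WT IMN and 0.960 to 23.5 TPM in Brd1+/- IMN libraries, overlapping throughout. Their part in the pan-myeloid values was not tested.

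The smallest p was that of Irf8, with a log2 difference of -0.33 (SE 0.10, limma unadjusted p = 0.00236, adjusted p = 0.172). Its medians were 2.03 TPM in WT vehicle and 1.78 TPM in Brd1+/- vehicle against 1.53 TPM in WT IMN and 1.34 TPM in Brd1+/- IMN. Gpr34 had a log2 difference of -0.25 (SE 0.08, limma unadjusted p = 0.00374, adjusted p = 0.212), with medians of 6.15 TPM and 7.46 TPM in the vehicle groups against 5.81 TPM and 5.54 TPM in the IMN groups. Both IMN medians lay below both vehicle medians for these genes, although the ranges overlapped. Ltc4s, the leukotriene C synthase, ran from 2.63 to 9.02 TPM in WT vehicle, from 3.33 to 12.6 TPM in Brd1+/- vehicle, from 3.56 to 6.87 TPM in WT IMN and from 2.33 to 7.34 TPM in Brd1+/- IMN libraries. Itgam ran from 2.25 to 3.88 TPM, 2.02 to 7.66 TPM, 1.03 to 4.41 TPM and 1.16 to 4.62 TPM in the same order. The groups overlapped for both. The log2 difference of Ltc4s was -0.39 (SE 0.15, limma unadjusted p = 0.0122, adjusted p = 0.344). The others had log2 differences of 0.20 for Mertk (limma unadjusted p = 0.0150, adjusted p = 0.369), -0.29 for Spi1 (p = 0.0245, adjusted p = 0.433), -0.15 for Ly86 (p = 0.0377, adjusted p = 0.490) and -0.29 for Itgam (p = 0.0423, adjusted p = 0.506). P2ry12, Tmem119, C1qa, C1qb and C1qc were between -0.05 and 0.01. All 33 estimates had a median of -0.05 against 0.00 over all genes, with 26 lower, and the oligodendrocyte markers had a median of 0.41 in the same fit. With their mean in the fit, 5 microglia genes were at an unadjusted p below 0.05 and 20 estimates were lower. Without Brd1+/- IMN 6 there were also 5, and 22 estimates were lower.

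**Figure D3:**
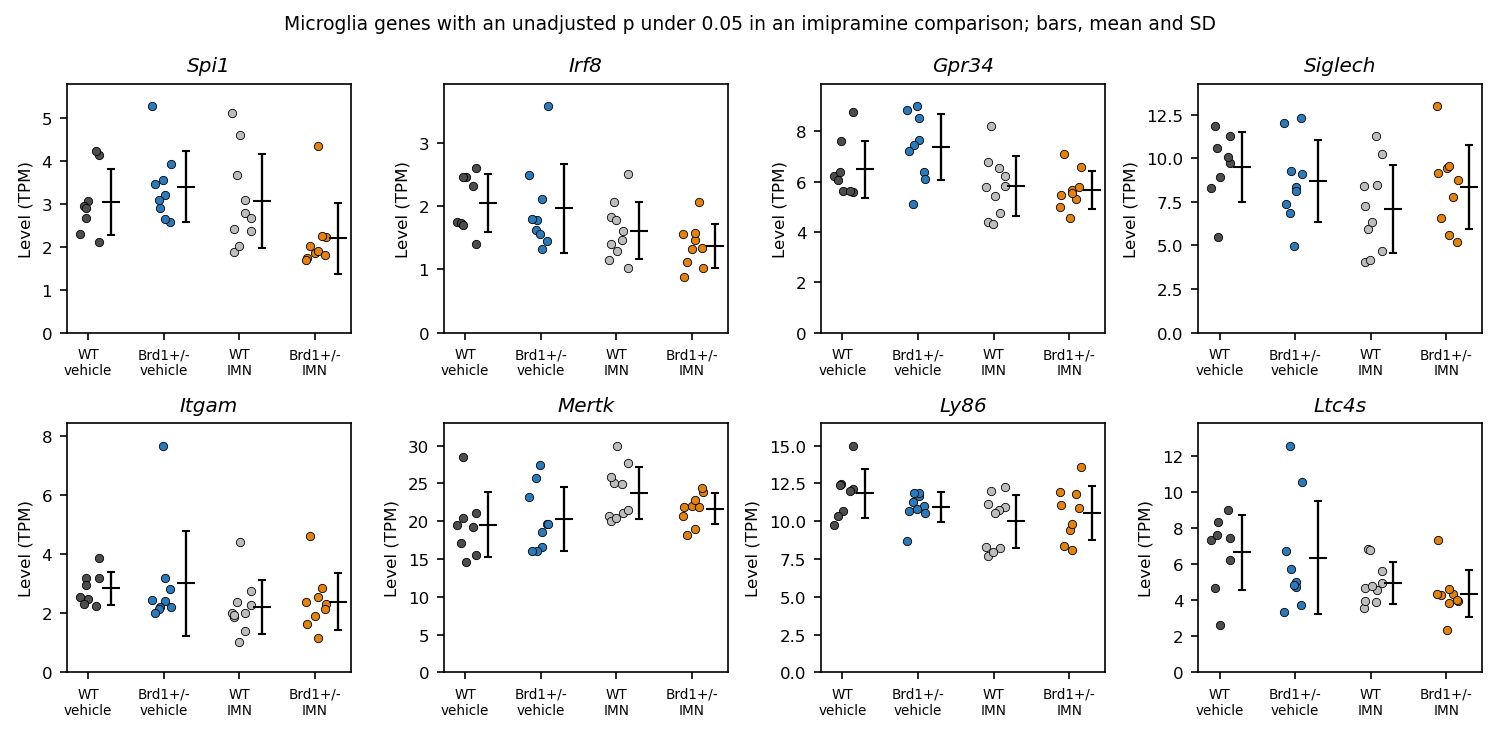
Level in TPM of Spi1, Irf8, Gpr34, Siglech, Itgam, Mertk, Ly86 and Ltc4s in each of the 36 libraries (points), by group, with a bar at the group mean and an error bar of 1 SD. Spi1 lies at or below 2.26 TPM in the Brd1+/- IMN libraries except replicate 8 at 4.35 TPM, and the groups overlap for every gene, Spi1 included.

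Beyond the 33 genes, the signals and partners of microglia were followed as a list of 22 genes, of which 21 passed the filter on low values, and markers of activation as a list of 16, of which 10 did. Of the activation list, Ccl4 was listed at 0 in all 36 libraries and Il6 and Tnf in 34 and 33 of them. At an unadjusted p below 0.05 there were 0 genes of both lists between genotypes under vehicle (3.75% of all genes), and 1 under imipramine (3.23%), Axl, a relative of Mertk, at a log2 difference of 0.31 (limma unadjusted p = 0.0385). Imipramine in Brd1+/- mice had 2 (5.52% of all genes), Spp1 (osteopontin) at 0.73 (limma unadjusted p = 0.0160) and Csf1, the ligand of Csf1r, at 0.35 (p = 0.0432). In WT mice there were 0 of both lists (6.60%). Over both genotypes there were 3 (9.38%), with estimates of 0.56 for Spp1 (limma unadjusted p = 0.00350), 0.38 for Gpnmb (p = 0.0269) and 0.16 for Entpd1, an ectonucleotidase (p = 0.0483). None passed at an adjusted p below 0.05 (limma). The activation list as a whole did not go the way of Spp1 and Gpnmb. It had 3 higher and 7 lower estimates over both genotypes, with a median of -0.03, and 4 higher and 6 lower with imipramine in Brd1+/- mice. Outside these lists, the endothelial genes Pecam1 (0.31 in Brd1+/- mice, limma unadjusted p = 0.0159) and Slco1a4 (0.55 in WT mice), the striatal Tac1 (0.81 in WT mice, with an interaction of -1.13) and the B cell gene Cd79a (-0.46 for genotype under vehicle and -0.33 over both treatments) were at an unadjusted p below 0.05. Of the 7 endothelial markers, 6 had higher estimates with imipramine in Brd1+/- mice, with a median of 0.14. In WT mice 3 were higher and 4 lower, with a median of -0.04.

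How the genes varied together over the 36 libraries was described by Pearson's r on log2(TPM + 0.5). Libraries share their dissection and the total to which TPM is scaled, so these values describe the libraries. Over the 528 pairs r had a median of 0.29 and ran from -0.55 to 0.91, with 462 pairs above 0. The complement genes were the most alike, with r of 0.91 for C1qa and C1qc, 0.87 for C1qa and C1qb and 0.85 for C1qb and C1qc. Complement genes against phagocytic and lysosomal genes had a median r of 0.62, and homeostatic genes among themselves one of 0.25. Laptm5 and Csf1r reached 0.85. After the group means were subtracted, Lgmn, whose median r with the other genes was -0.26, Irf8 at -0.02 and Siglech at 0.05 went least with the rest. On that scale C1qa had 0.61 and C1qc 0.60.

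**Figure D4:**
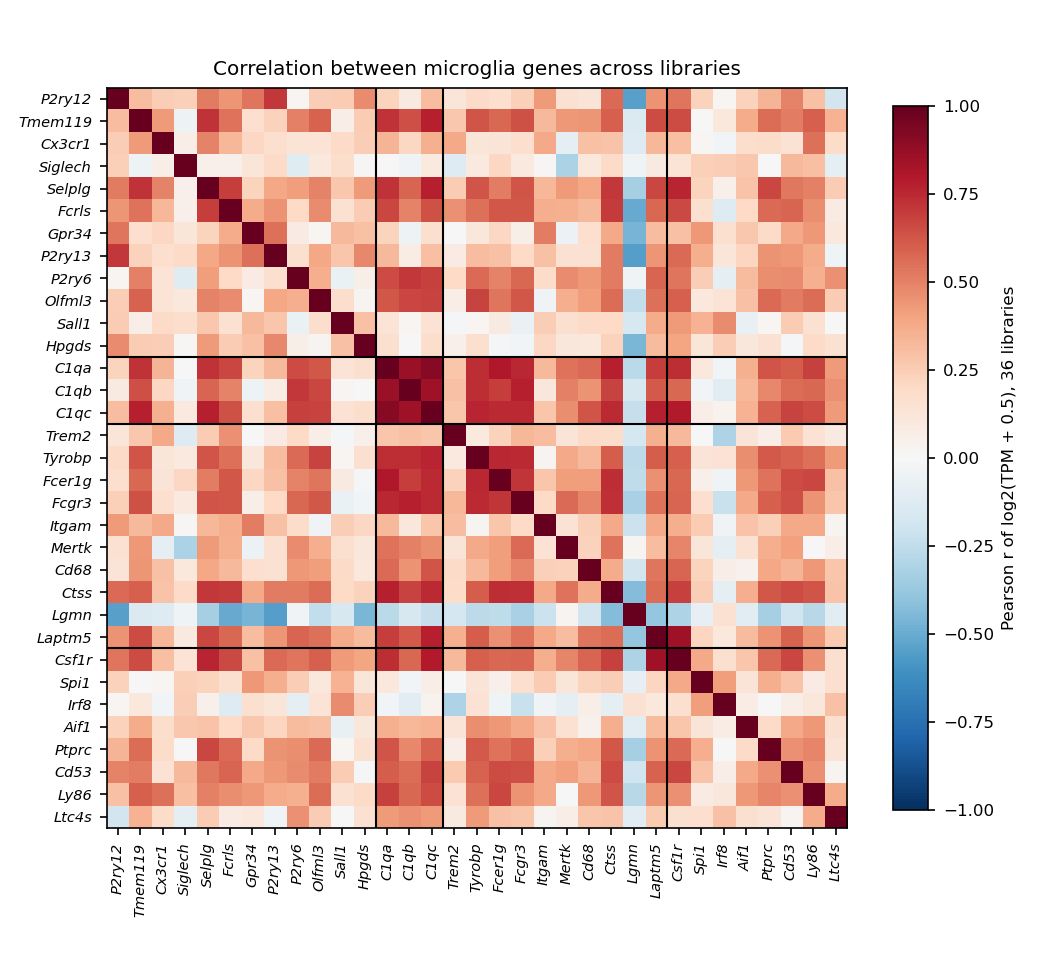
Pearson's r over the 36 libraries for each pair of the 33 genes, ordered by functional group; the colour scale runs from -1 to 1. The complement block is the most uniform at 0.85 to 0.91, and the rows of Lgmn, Irf8 and Siglech are pale or negative.

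For 8 pairs the relation was tested, with permutation tests of r and rho and adjustment over the 8. C1qa and C1qb had r = 0.87 and rho = 0.89 (permutation p = 1e-05 for each, the smallest the draws allow, adjusted p = 8e-05 and 4e-05), and r was 0.84 without the 2 libraries farthest from the median of C1qa. P2ry12 and Tmem119 had r = 0.31 and rho = 0.21 (permutation p = 0.0681 and 0.221, adjusted p = 0.0965 and 0.295), and r within the groups was 0.77 in WT vehicle, 0.15 in Brd1+/- vehicle, 0.45 in WT IMN and 0.62 in Brd1+/- IMN, the order used for the pairs that follow. After the group means were subtracted, r of this pair was 0.46 (permutation test, adjusted p = 0.00998), so whether the leading homeostatic markers were related over mice depended on that step. P2ry12 and C1qa had r = 0.23 and rho = 0.19 (permutation p = 0.187 and 0.274, adjusted p = 0.214 and 0.314), r = 0.40 without 2 libraries, and a value of -0.51 within Brd1+/- vehicle where the other groups had 0.65, 0.37 and 0.55. Tmem119 and Cd68 had r = 0.44 and rho = 0.40 (permutation p = 0.00682 and 0.0158, adjusted p = 0.0136 and 0.0252), r = 0.35 without 2 libraries, and within groups 0.89, 0.04, 0.06 and 0.67. That relation was seen within WT vehicle and Brd1+/- IMN and hardly within the other groups.

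Because Trem2 fell into separate sets of libraries, its relation to its adaptor Tyrobp is given within each, a step chosen after seeing the data. It had r = 0.52 and rho = 0.28 in the 10 low libraries (permutation p = 0.124 and 0.428, adjusted over both sets 0.248 and 0.63), with r = 0.31 without 2 libraries. In the 26 high libraries it had r = -0.21 and rho = -0.10 (permutation p = 0.295 and 0.63, the same after adjustment), with r = -0.19 without 2 libraries. No relation of Trem2 to Tyrobp was detected in either set. Cx3cr1 and Csf1r had r = 0.30 and rho = 0.52 (permutation p = 0.0723 and 0.00142, adjusted p = 0.0965 and 0.00379). Without Brd1+/- vehicle 2 and Brd1+/- vehicle 7, the libraries lowest in Cx3cr1, r was 0.69, and within the groups it was 0.67, -0.19, 0.86 and 0.76, so the low pooled r rested on those libraries. C1qa was also related to Cldn5, the claudin of endothelial tight junctions, with r = 0.62 and rho = 0.71 (permutation p = 7e-05 and 1e-05, adjusted p = 0.00028 and 4e-05), r = 0.71 without 2 libraries, and within groups 0.78, 0.62, 0.88 and 0.26. P2ry12 ran against Mbp, the myelin basic protein gene, with r = -0.51 and rho = -0.44 (permutation p = 0.00187 and 0.00833, adjusted p = 0.00499 and 0.0167), r = -0.56 without 2 libraries, and within groups -0.78, -0.44, -0.65 and -0.46.

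The relation to myelin held across the gene set as a description. The summed level of the 10 oligodendrocyte markers ran from 176.2 to 3342 TPM over the libraries, a spread far wider than that of the microglia genes, and their mean had r = -0.67 with the mean of the 33 genes, or -0.66 after the group means were subtracted. The mean of astrocyte markers had r = 0.54 with that of the microglia genes, border macrophage markers 0.49, endothelial markers 0.47, neuronal markers -0.36 and striatal markers -0.02. Lgmn ran the other way, with r = 0.71 with the oligodendrocyte mean, and Irf8 had 0.14. All other microglia genes had an r below 0 with it, down to -0.66 for Laptm5. Since the oligodendrocyte markers had higher estimates in 3 of the 4 comparisons between groups, these values stand beside the counts of lower estimates given above, and their part in those counts was not tested beyond the fit with the oligodendrocyte term.

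**Figure D5:**
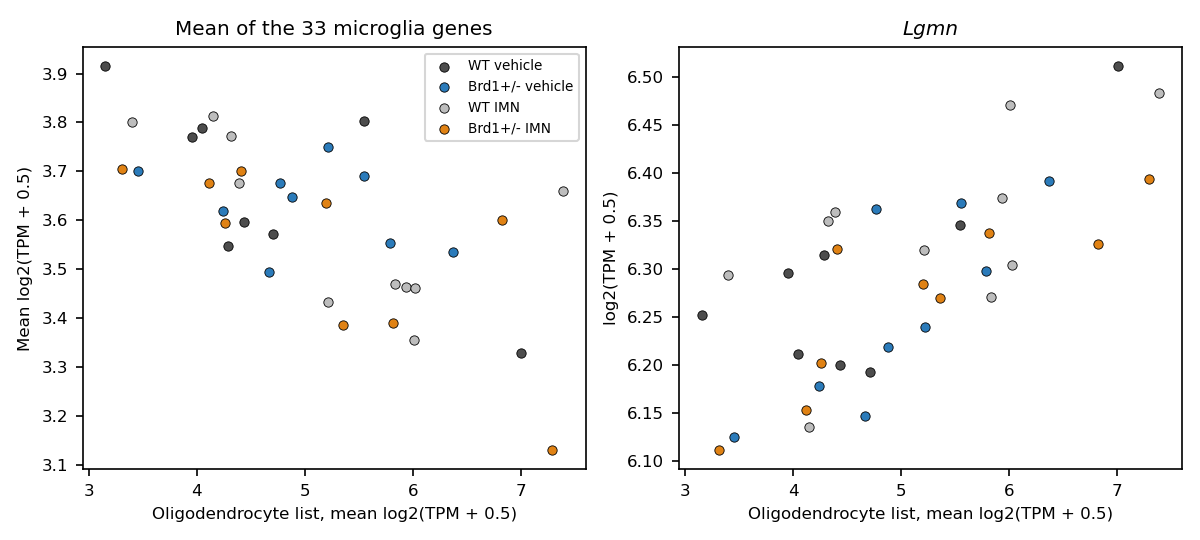
Mean log2(TPM + 0.5) of the 33 microglia genes (left) and level of Lgmn (right) against the mean log2(TPM + 0.5) of the 10 oligodendrocyte markers, 1 point per library, coloured by group. The 33-gene mean falls along the axis (r = -0.67) and Lgmn rises (r = 0.71), with all 4 groups spread along it.

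The libraries themselves also differed. On the mean log2 scale the 33 genes ran from 3.13 in Brd1+/- IMN 6 to 3.92 in WT vehicle 4. Brd1+/- IMN 6 was below the median of its group for 28 of the 33 genes and the highest of its group for 2, Sall1 and Lgmn. WT vehicle 1 was the lowest of its group for 20 genes, WT vehicle 4 the highest of its group for 11, and Brd1+/- vehicle 7 the highest of all libraries for 5. Brd1+/- IMN 6 and WT vehicle 1 were also high in oligodendrocyte markers, which summed to 3267 TPM and 2710 TPM. The highest such sum, 3342 TPM in WT IMN 7, went with a microglial sum of 684.2 TPM. The part of myelin in these libraries was not tested. Markers of blood leukocytes were mostly at 0, with 3 of 8 passing the filter on low values, and their sum had a median of 0.520 TPM, rising to 23.8 TPM in WT vehicle 4. The highest microglial sum and the highest leukocyte sum were thus in the same library. The next highest leukocyte sum, 14.3 TPM in Brd1+/- vehicle 9, went with a microglial sum of 592.6 TPM, below the median of the libraries.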

How the data were processed

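RNA was extracted from punches of the right aCC with a Maxwell kit and sequenced on a BGISEQ-500, and the authors trimmed the reads with Trimmomatic, aligned them with HISAT2 2.1.0 to GRCm38 and estimated expression with StringTie 1.3.4. The deposited table holds TPM per Ensembl gene and library, with totals of 999727 to 999889 per library. TPM corrects for gene length and fixes the total, so a rise of abundant transcripts lowers the rest, and the depth per sample is unknown. Strand use and the treatment of reads that match several places are not given in the sources used here.

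Symbols came from an annotation of the same build (52403 of 52636 genes matched). Levels were put on the log2(TPM + 0.5) scale, and a gene was tested if 8 or more of the 36 libraries reached 0.1 TPM, which left 25572 genes, all 33 microglia genes among them. Pairs of groups were compared with limma 3.58.1 in R 4.3.3 (moderated test with intensity trend, two-sided, Benjamini-Hochberg adjustment over all genes tested), and all 36 libraries gave the interaction and the pooled effects. Differences are on the log2(TPM + 0.5) scale, where changes of genes at low levels come out too small. Libraries are separate mice, and no 2 were identical. Relations used permutation tests with 100000 draws, two-sided, in Python 3.11.15 with scipy 1.17.1. The fit was tested on simulated data. P2ry12, Tmem119 and the C1q genes were named in each comparison of groups, other microglia genes at an unadjusted p below 0.05, and of the other lists at most the 5 genes with the smallest p. Alternatives were other pseudocounts, filters, scalings, array weights, a replicate block and leaving out each library. The fits with the oligodendrocyte mean, and the pooled fits without Brd1+/- IMN 6, were chosen after seeing the data. The genes, lists and tests were chosen with earlier results of these data known, and all of the gene lists carry that limit.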

Additional observations from a re-analysis of the deposited data

Results flagged for a closer look

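In 14 of the 132 combinations of a microglia gene and a group, 1 library stood apart from the others of its group by Dixon's test on TPM, in 11 genes. That is 10.6% of the combinations, against 12.9% of those over all genes tested; under the test's own assumptions chance gives about 1 in 20. Brd1+/- vehicle 7 held 4 of them, with C1qb at 102.1 TPM (next library 70.6 TPM), Tyrobp at 42.8 TPM (29.6 TPM), Fcgr3 at 24.7 TPM (18.3 TPM) and P2ry6 at 3.96 TPM (2.57 TPM), all the highest of the group. Itgam stood apart in 3 groups, at 7.66 TPM in Brd1+/- vehicle 8 (next 3.18 TPM), 4.41 TPM in WT IMN 10 (2.74 TPM) and 4.62 TPM in Brd1+/- IMN 1 (2.84 TPM). Spi1 was high in Brd1+/- vehicle 2 at 5.29 TPM (next 3.94 TPM) and in Brd1+/- IMN 8 at 4.35 TPM (2.26 TPM), both of them in the comparison of imipramine in Brd1+/- mice. Ly86 was low in Brd1+/- vehicle 2 at 8.68 TPM (next 10.6 TPM). Mertk was high in WT vehicle 6 at 28.5 TPM (21.1 TPM), Lgmn in WT vehicle 1 at 90.7 TPM (80.9 TPM), Hpgds in WT IMN 1 at 4.31 TPM (2.97 TPM) and Ltc4s in Brd1+/- IMN 2 at 7.34 TPM (4.65 TPM). Dixon's test was not run on the log2 levels of the genes. On TPM it did not flag the low values of Cx3cr1 and Olfml3 given under the other observations. No interaction of genotype and imipramine passed at an adjusted p below 0.05 in limma.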

How the results depend on the processing

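In 155 other fits no microglia gene reached an adjusted p below 0.05 in limma, and the smallest was 0.0545. Of 1400 values under other settings, 1300 were classed as the same. For differences of single genes this meant the same sign and the same side of an adjusted p of 0.05. No microglia gene passed that limit in any fit, so losing an unadjusted p below 0.05 still counted as the same. Leaving out a library did so for Spi1 in 10 of 19 fits (genotype under imipramine). It did so for Siglech in 6 and Ly86 in 8 of 18 fits (imipramine in WT). Counts had a tolerance, and medians were held against the spread between mice. A further 29 were classed as moved and 1 as stronger. The other 70 changed sign, in 12 of the 36 differences of single genes and in the relation of Trem2 to Tyrobp. That relation had r = -0.21 in the high Trem2 libraries. The median over the microglia genes was held against a spread of 0.206, wider than its own values, so the count cannot test its direction. Sign changes of this median are not among the 70. It went from -0.046 to 0.013 with array weights and 0.020 without Brd1+/- IMN 6 for genotype under imipramine. For imipramine in WT it went from -0.057 to 0.019 with the oligodendrocyte mean. The cause of the sign changes was not tested. For genotype under imipramine the log2 difference was 0.041 for C1qa, 0.038 for C1qb and 0.029 for C1qc with array weights, 0.006, 0.003 and 0.009 with the replicate block, and for C1qb 0.004 with quantile normalization and 0.003 without mitochondrially encoded genes. For imipramine in Brd1+/- mice it was 0.004 (quantile) and 0.025 (array weights) for C1qa, and 0.009 (quantile), 0.016 (without mitochondrial genes), 0.023 (array weights) and 0.011 (oligodendrocyte mean) for C1qc. For imipramine in WT mice, P2ry12 was -0.035 with array weights and -0.045 with the block, the oligodendrocyte mean gave 0.003 for Tmem119, 0.046 for C1qa and 0.055 for C1qb, and C1qb was 0.005 with median-ratio scaling, 0.023 with quantile normalization and 0.005 without mitochondrial genes. Leaving out each library gave ranges for C1qa of -0.088 to 0.020 (genotype under vehicle), -0.065 to 0.050 (genotype under imipramine), -0.062 to 0.050 (imipramine in Brd1+/-) and -0.088 to 0.020 (imipramine in WT). For C1qb they were -0.036 to 0.047 (genotype under imipramine), -0.002 to 0.110 (imipramine in Brd1+/-) and -0.056 to 0.023 (imipramine in WT), and for C1qc -0.054 to 0.044 (genotype under imipramine) and -0.041 to 0.058 (imipramine in Brd1+/-). P2ry12 ran from -0.042 to 0.046 for imipramine in WT and Tmem119 from -0.064 to 0.043 for imipramine in Brd1+/-. P2ry12 and Tmem119 had r = 0.46 after subtracting group means (permutation test, adjusted p = 0.00998). For imipramine over both genotypes the genes passing among all tested were 70, and 191 with array weights and 38 with the block. Replicate numbers did not pair the mice. Same-numbered libraries had median correlations of -0.05 to -0.01 in their deviations, and with the replicate block the unadjusted p in limma was 0.111 for Spi1 under imipramine, 0.0580 for its interaction, and 0.0826 for Mertk and 0.0535 for Ly86 with imipramine in WT, each under 0.05 without it. Without counts, precision at low levels is unknown.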

Other observations

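Trem2 had an uneven spread over the libraries. In 10 libraries it lay between 2.57 and 3.92 TPM and in 26 between 6.71 and 13.2 TPM, with none between, and the low values fell in 3 libraries of each vehicle group, 3 of Brd1+/- IMN and 1 of WT IMN. The step between the neighbouring values was 1.71-fold, where the next largest step of a microglia gene with 5 or more libraries on each side was 1.14-fold, in Hpgds. Cx3cr1 was 4.07 TPM in Brd1+/- vehicle 2 and at least 9.59 TPM in the other libraries, and Olfml3 was 1.21 TPM in Brd1+/- IMN 1 and at least 4.92 TPM in the others.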
